A study of Mus musculus with 2 samples.

Results

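The genes described are 51 genes of DNA replication and the S-phase cyclins, taken from a fixed list of origin licensing factors, replication fork proteins, cyclins and their kinases, out of 21887 protein-coding genes of the annotation. Every member was found in the gene table, and a peak was assigned to a member where it lay inside the gene or within 1 kb of an annotated end, which are the ends of the longest extent given for the gene. H3K4me3, the trimethylation of histone H3 found at active and poised promoters, was mapped by CUT&RUN, which sequences the short pieces of chromatin that an antibody-tethered nuclease cuts loose. The study made 1 H3K4me3 library and 1 IgG library, each from 130000 Oct-GFP+ prospermatogonia of mouse embryos at E17.5, sorted on the reporter. There were no replicates, no file of the IgG library was used here, and the sources used here do not give strain, litter or any further allele. No condition was compared, so each value describes this library, and intervals cover counting error only.

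Before a cell can replicate its DNA, the origin recognition complex with Cdc6 and Cdt1 loads the Mcm2 to Mcm7 helicase onto origins, a step called licensing. In S phase, kinases bound to cyclins switch the helicase on with Cdc45 and the GINS complex, and the polymerases then copy DNA behind the sliding clamp Pcna. E2F transcription factors drive many of these genes in cycling cells, and the retinoblastoma proteins hold E2F in check. Prospermatogonia of the late fetal testis are known as germ cells in mitotic arrest, which resume division after birth.

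The peak list held 135064 peaks with a median pileup of 27 fragments at the summit, the point of highest coverage in a peak. Among markers of the sorted cells, 9 of 10 germ cell genes had a peak by the same rule, and Nanos2 had none. Pou5f1, the gene behind Oct-GFP, had 106 fragments over a background of 32.71. Its enrichment was 3.17-fold, below the median of 7.21-fold over the germ cell genes with a peak. Markers of other testis cells also had peaks, at 8 of 8 Sertoli genes, 4 of 8 Leydig and interstitial genes and 7 of 8 endothelial and blood genes. Over all protein-coding genes that share was 83.4%, so most of these counts say little about which cells were present. At annotated ends the counts were 9 germ cell genes and 5, 3 and 3 genes of the other lists, where 74.5% of all protein-coding genes had a peak. Csf1r and the Leydig genes Cyp17a1, Hsd3b1, Insl3 and Star had no peak. Cyp11a1, Lhcgr, Acta2 and Pdgfra of the Leydig and interstitial list had one at an annotated start, with 51, 41, 41 and 46 fragments. The median over the germ cell genes with a peak was 35.0 fragments. The part of other cells in the values below was not tested.

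All 51 members carried H3K4me3. A peak lay inside or within 1 kb of an end at 51 of 51 members (100%, Wilson 95% interval 93.0 to 100), against 83.4% of all protein-coding genes. At an annotated end the count was 47 of 51 members (92.2%, 81.5 to 96.9), against 74.5% of protein-coding genes. With the windows moved by 100 kb, 29.4% of members and 23.9% of protein-coding genes had a peak at an end. With genes moved likewise, the rule of a peak inside or within 1 kb was met by 66.7% of members and 59.9% of protein-coding genes. The 4 members with no peak at an end, Orc1, Orc4, Rfc1 and Ccna1, had one at a RefSeq start that lies inside the annotated extent. Strand and start were taken from the RefSeq promoter table, which held 39 of the 51 members. At the annotated start, 39 of 39 of these had a peak (91.0 to 100), against 73.3% of the 17492 protein-coding genes in that table. Gins1, Gins2, Gins4, Ccnd1, Ccnd2, Rfc2, Mcm4, Gmnn, Ccna2, Prim2, Pole and Ccne2 are described from the gene table.

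The starts of the members were rich in CpG, and most CpG-rich starts in this library had a peak. The 300 bases of a promoter window, 250 before the start and 50 after it, held a median of 24 CpG over 46 member windows (range 1 to 48), against 13 over all 21263 windows. GC content had a median of 62.7% in member windows and 56.3% in all windows. The member with the fewest CpG in its richest window was Mcm3, with 8. Among protein-coding genes with at least 8 CpG, 97.9% of 11181 had a peak at the start, so 39 of 39 members is near that background. Among genes with 4 CpG or fewer, where no member fell, the share was 20.7%. These CpG ranges were chosen after the values were seen.

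At the summit, members were marked at the level of other marked genes. The leading peak of a gene was the one of highest pileup at its annotated start or, for the 12 members without one in the table, of all its peaks. Leading peaks had a median pileup of 42.0 fragments over members (range 27 to 55), against 42.0 over the 18243 protein-coding genes with a peak (range 9 to 161). The median fold was 5.86 over members (2.39 to 9.26), against 6.24 over all such genes. Fold is the pileup plus 1 over the local background plus 1, as the peak caller deposited it, so at a given pileup it is lower where the background is higher, and whether the IgG library entered that background is not stated. Of the members, 39 reached a fold of 5 (76.5%), against 78.0% of protein-coding genes with a peak. The median background was 6.19 fragments at members and 5.81 at all such genes. Exact Poisson 95% intervals of the pileups overlapped in all but 1 of 1275 pairs of members, the pair of Top2a and Mcm3. The median of all genes fell inside the interval of 50 members and outside that of Mcm3. An order of members by pileup is therefore not resolved at this depth beyond these ends.

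**Figure D1:**
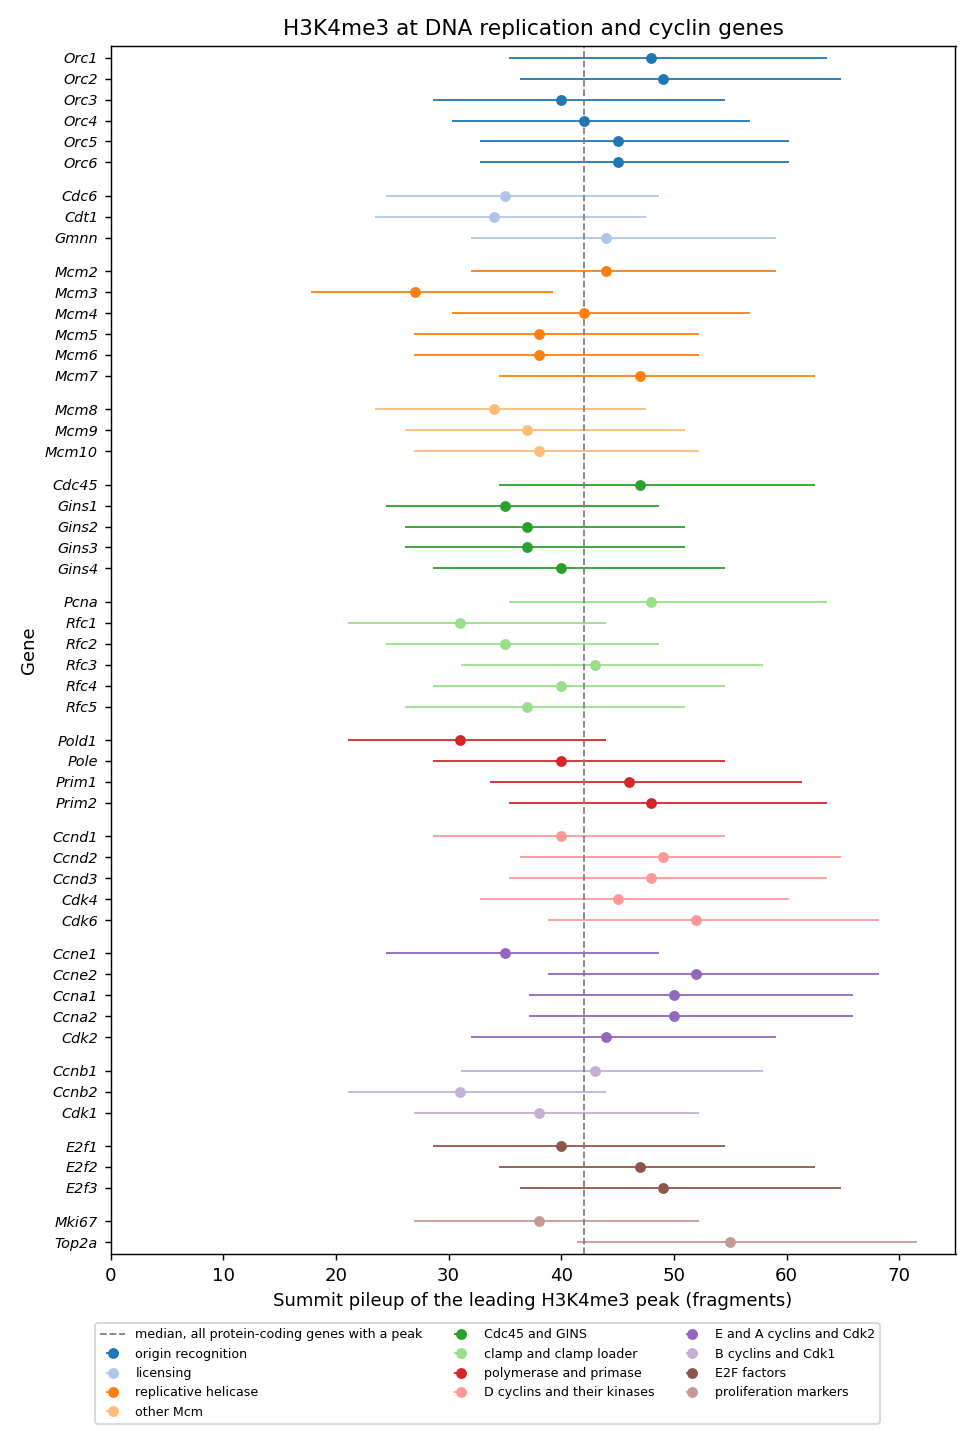
Summit pileup of the leading H3K4me3 peak at each of the 51 members, in fragments, by role; bars are exact Poisson 95% intervals and the line marks the median of all protein-coding genes with a peak, 42.0. Values run between 27 (Mcm3) and 55 (Top2a), and the intervals of 50 members cross the line.

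The mark at members reached some way to either side of the start. The median width of the leading peak was 1252 bp at members (242 to 1934), against 1113 bp at all protein-coding genes with a peak. Among protein-coding genes with at least 8 CpG, the lowest count of a member, the median width was 1209 bp. In all, 36 members had a leading peak of at least 1 kb (70.6%), against 58.5% of protein-coding genes with a peak. Peaks covered a median of 1410 bp of the 2001 bp around the start at members, against 1326 bp at all protein-coding genes with a peak at the start. The base of the start itself was covered at 34 of 39 members (87.2%), against 80.8% of marked genes. The exceptions were Ccne1, Cdk4, Cdk6, E2f1 and E2f3, where peaks lay to the side of the start. The summit lay downstream of the start in 26 of 39 members (66.7%), against 57.7%, at a median of 147 bp downstream in members and 102 bp in all marked genes. More than 1 peak lay at the start of 17 members (43.6%), against 41.3% of protein-coding genes with a peak at the start. Further out, at 1300 bp downstream of the start, peaks covered 3 of 39 members (7.69%) and 12.9% of all protein-coding genes in the table. At 1500 bp upstream they covered 2.56% and 4.18%, and at 2700 bp upstream 5 of 39 members (12.8%) and 2.70%. These positions were picked from the profile, and the member counts are small. At Cdt1, Orc5 and Mki67 the far upstream peak was separate from the peak at the start.

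**Figure D2:**
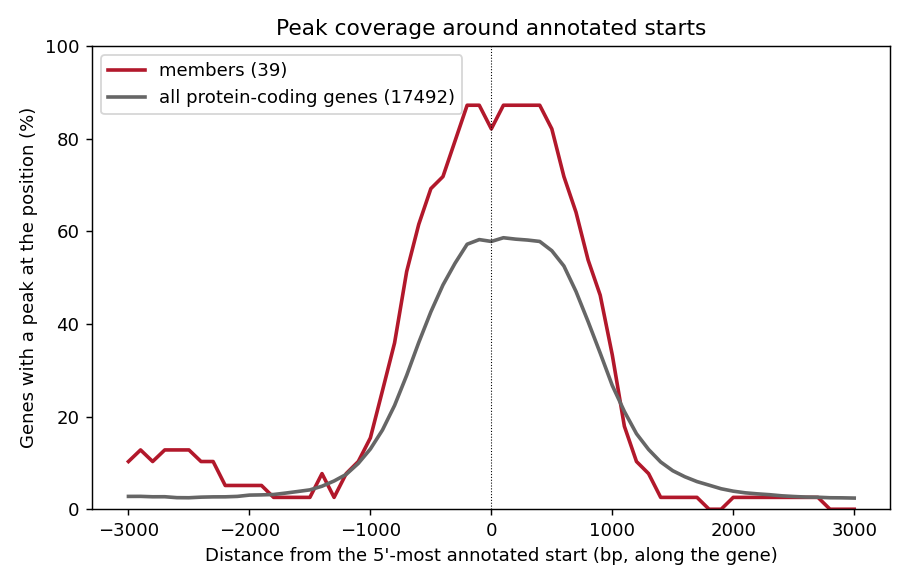
Percent of genes with a peak over each position around the 5′-most annotated start, for 39 members and for 17492 protein-coding genes, by distance in bp. At 100 bp downstream, 87.2% of members and 58.6% of protein-coding genes were covered, and at 1000 bp downstream 33.3% and 26.7%.

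The sequences before the start show what these promoters share beyond the mark. Letters were searched on both strands in the 300-base windows for the E2F motif (TTCCCGC or TTGGCGC), the CCAAT box that the factor NF-Y binds, the CHR element of cell-cycle genes (TTTGAA or TTCGAA) and the GC box (GGGCGG) that Sp factors bind. The E2F letters TTGGCGC can overlap a CCAAT read on the other strand. E2F letters were in 47.8% of member windows (22 of 46, at 21 members), against 8.69% of all windows. CCAAT was in 67.4% of member windows and 38.2% of all windows, and the GC box in 80.4% and 46.2%. CHR letters were in 23.9% of member windows, against 17.6%. Among windows with at least 10 CpG, a comparison chosen after the values were seen, E2F letters were in 51.2% of member windows and 13.8% of all windows. CCAAT was then in 65.9% and 36.8%, CHR letters in 24.4% and 11.5%, and the GC box in 80.5% and 72.4%. A match is a description of letters, not a bound site.

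By role, E2F letters were in the windows of 4 of 5 helicase members, Mcm3, Mcm5, Mcm6 and Mcm7, and not of Mcm2. They were also at Cdc6 and Cdt1, the 2 licensing members with a window. Pold1 and Prim1, the 2 members of the polymerase group with a window, held them, and so did 3 of 5 clamp and clamp loader members, Rfc1, Rfc3 and Rfc4. Among the cell-cycle kinases they were at Cdk1 and Cdk2, and at 0 of 3 members with a window in the group of D cyclins and their kinases. The other members were Orc3, Orc4, Mcm8, Gins3, Ccnb1, E2f2, E2f3 and Mki67. The 21 members with E2F letters had a median leading pileup of 38.0 fragments, and the 18 without had 45.0, a description with no test.

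**Figure D3:**
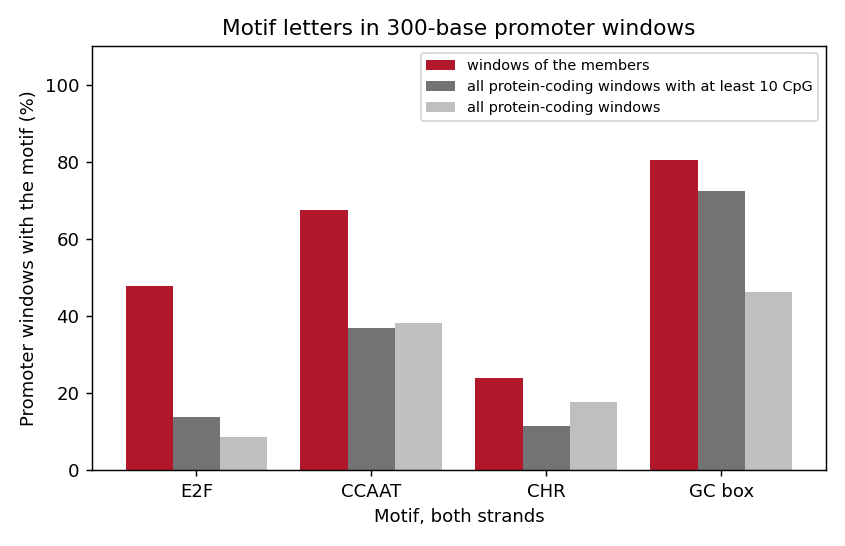
Percent of promoter windows that hold each motif, for 46 windows of members, all protein-coding windows with at least 10 CpG and all 21263 protein-coding windows; no error bars are drawn. E2F letters stand at 47.8%, 13.8% and 8.69% of these windows, and the GC box at 80.4%, 72.4% and 46.2%.

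The 6 windows below are printed to show these letters at promoters of different roles, 5′ to 3′, as the 250 bases before the start. They are from RefSeq, build GRCm38.p6 (mm10), and capitals mark the E2F, CCAAT, CHR and GC box letters on either strand. Mcm7 (chr5:138171884-138172133) encodes a helicase subunit, and Pcna (chr2:132253181-132253430) the clamp. Ccnb1 (chr13:100786487-100786736) encodes a mitotic cyclin, and E2f3 (chr13:29986064-29986313) an E2F factor. All of these are on the minus strand and have the highest pileup in their roles among members of the table. Orc2 (chr1.0:58505110-58505359, minus strand) has the highest pileup of the origin recognition genes and none of the 4 motifs in these bases. Orc4 (chr2:48949268-48949517, minus strand) starts inside its annotated extent.
Mcm7: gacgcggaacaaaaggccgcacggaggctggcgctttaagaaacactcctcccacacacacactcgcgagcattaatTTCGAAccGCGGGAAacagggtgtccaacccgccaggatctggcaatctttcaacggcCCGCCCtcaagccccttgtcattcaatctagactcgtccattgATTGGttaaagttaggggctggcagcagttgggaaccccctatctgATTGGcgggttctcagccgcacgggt
Pcna: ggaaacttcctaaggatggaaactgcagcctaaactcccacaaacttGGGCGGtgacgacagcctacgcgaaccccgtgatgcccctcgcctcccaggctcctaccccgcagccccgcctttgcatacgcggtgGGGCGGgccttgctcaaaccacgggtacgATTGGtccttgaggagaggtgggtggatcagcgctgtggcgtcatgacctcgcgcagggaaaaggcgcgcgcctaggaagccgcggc
Ccnb1: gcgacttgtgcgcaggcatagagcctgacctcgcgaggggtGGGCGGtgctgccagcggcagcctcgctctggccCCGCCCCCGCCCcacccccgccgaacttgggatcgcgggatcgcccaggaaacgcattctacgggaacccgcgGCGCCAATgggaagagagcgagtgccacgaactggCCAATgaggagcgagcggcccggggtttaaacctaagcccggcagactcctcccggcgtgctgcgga
E2f3: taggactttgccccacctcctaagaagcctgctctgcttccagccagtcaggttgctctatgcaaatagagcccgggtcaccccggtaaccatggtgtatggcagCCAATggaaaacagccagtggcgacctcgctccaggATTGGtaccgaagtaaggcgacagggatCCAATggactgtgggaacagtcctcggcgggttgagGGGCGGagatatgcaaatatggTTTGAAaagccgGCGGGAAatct
Orc2: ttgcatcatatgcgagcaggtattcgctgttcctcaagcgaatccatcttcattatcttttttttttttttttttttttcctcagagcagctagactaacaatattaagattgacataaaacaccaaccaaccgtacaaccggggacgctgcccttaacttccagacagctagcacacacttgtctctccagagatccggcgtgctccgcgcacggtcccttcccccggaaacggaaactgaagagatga
Orc4: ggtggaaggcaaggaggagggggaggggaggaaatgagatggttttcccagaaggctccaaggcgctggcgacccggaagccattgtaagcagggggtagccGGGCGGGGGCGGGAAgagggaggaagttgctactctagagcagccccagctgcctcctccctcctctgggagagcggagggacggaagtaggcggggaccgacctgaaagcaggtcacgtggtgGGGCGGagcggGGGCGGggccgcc
The Mcm7 sequence held E2F letters once, CCAAT letters at 2 places and CHR and GC box letters at 1 place each. The Ccnb1 sequence held 28 CpG and the Orc2 sequence 13, and each had a peak at its start.

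The origin recognition genes, whose products mark replication origins, had leading pileups of 40 to 49 fragments at all 6 subunits, with a median fold of 5.31. Orc2 was highest, with 49 fragments (36.3 to 64.8) in a peak of 1788 bp at chr1:58504082-58505869, 6.82-fold over background. Orc3 was lowest, with 40 fragments (28.6 to 54.5) at chr4:34613546-34614143 and a fold of 4.43. A wider Orc3 peak of 1694 bp lay across the start, with 39 fragments. The leading intervals of Orc2 and Orc3 overlap. Orc1 had 48 fragments in a 1733 bp peak at chr4:108578256-108579988, and Orc4 had 42 fragments at chr2:48948515-48949326. Orc5 and Orc6 each had 45. Orc1, Orc3 and Orc4 share their promoter with a gene on the other strand, Prpf38a at 118 bp, Rars2 at 15 bp and Mbd5 at 241 bp, so the mark cannot be assigned to either gene of these pairs. The Orc6 peak, the widest leading peak of any member at 1934 bp, also reached an end of Vps35.

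The licensing factors load the helicase, and geminin (Gmnn) blocks Cdt1 after origins have fired. Gmnn had 44 fragments (32.0 to 59.1) at chr13:24761095-24762485, with a fold of 6.86. Cdt1 had 34 fragments (23.5 to 47.5) at chr8:122567286-122568559 and a fold of 3.97, and Cdc6 had 35 fragments and a fold of 8.04. Cdc6 and Cdt1 stood on backgrounds of 3.48 and 7.82 fragments.

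The 6 subunits of the replicative helicase had a median of 40 fragments. Mcm7 was highest, with 47 fragments (34.5 to 62.5) at chr5:138170737-138172497 and a fold of 5.63. Mcm3 had the lowest pileup among the leading peaks of members, 27 fragments (17.8 to 39.3) at chr1:20819626-20820883. Mcm3 also had the lowest local background among these leading peaks, 2.89 fragments, so its fold of 7.20 was above the median of the group, 5.82. Mcm2 had 44 fragments with a fold of 4.22, Mcm4 had 42, and Mcm5 and Mcm6 had 38 each. The start of Mcm7 lies 138 bp from that of Ap4m1, and the Mcm4 peak also reached an end of Prkdc. Among the other Mcm genes, Mcm10, which helps to start the fork, had 38 fragments (26.9 to 52.2) at chr2:5011876-5013078 and a fold of 8.90. Mcm8, a partner of Mcm9 in recombination, had 34 (23.5 to 47.5) at chr2:132815386-132816924. Mcm9 had 37 at its start and 9 peaks in all, the most of any member. One of its inner peaks, at chr10:53579909-53581084, had 56 fragments and a fold of 8.54, and 4 others lay inside Mcm9 near an end of Asf1a, a gene that lies within it.

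Cdc45 and the GINS genes encode the parts that turn the loaded helicase into a moving fork. Cdc45 had 47 fragments (34.5 to 62.5) at chr16:18811015-18812803 and a fold of 6.45, in a peak shared with Ufd1, whose start is 322 bp away on the other strand. The 4 GINS genes had 35 to 40 fragments, with 37 at Gins2 and Gins3. Gins1 was lowest, with 35 (24.4 to 48.7) at chr2:150909413-150910262 and a fold of 4.93, while Gins4 had 40 and a fold of 8.13.

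The clamp gene Pcna had 48 fragments (35.4 to 63.6) at chr2:132252326-132253577, and a fold of 4.98 over a background of 8.83. The Rfc genes, which encode the loader that places the clamp on DNA, had 31 to 43 fragments. Rfc1 was lowest, with 31 (21.1 to 44.0) at chr5:65335053-65336582, a peak at a start inside its annotated extent. Rfc2 had 35 fragments, Rfc4 had 40 and Rfc5 had 37, with folds of 8.10, 6.67 and 7.30. Rfc3 had the highest of them, 43, and a second peak at its other end with 34 fragments and a fold of 10.53. In the polymerase group, Prim2 of the primase had 48 fragments (35.4 to 63.6) at chr1:33669327-33670881. Pold1, the catalytic subunit of polymerase delta, had 31 (21.1 to 44.0) at chr7:44548327-44549168 and a fold of 3.38. Prim1, the catalytic primase subunit, had 46 fragments and the highest fold among the leading peaks of members, 9.26. Pole, of polymerase epsilon, had 40.

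The D cyclins and their kinases link growth signals to the start of the cycle. Ccnd1, Ccnd2 and Cdk6 had the highest local backgrounds among the leading peaks of members, 16.15, 16.87 and 14.35 fragments. Cdk4 had 9.39 and Ccnd3 had 7.46. The median background of the 5 genes was 14.35 fragments, against 6.19 over all members, and their median fold was 3.45, against 5.86. Their pileups were not low, with a median of 48.0 fragments. Cdk6 had 52 fragments (38.8 to 68.2) at chr5:3344311-3344869 and a fold of 3.45. Ccnd1 had 40 (28.6 to 54.5) in a narrow peak of 271 bp at chr7:144939478-144939748, and the lowest fold among the leading peaks of members, 2.39. A second Ccnd1 peak, of 278 bp at chr7:144940216-144940493, also had 40 fragments and a fold of 2.39. Ccnd2 had 49 fragments in a peak of 242 bp and a fold of 2.80. Ccnd1, Ccnd2, Cdk6 and E2f3 were the 4 members with a background of at least 10 fragments (7.84% of members), against 8.73% of protein-coding genes with a peak. Ccnd3 had 48 fragments at a start within the gene and 32 at its 5′-most start, and Cdk4 had 45.

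**Figure D4:**
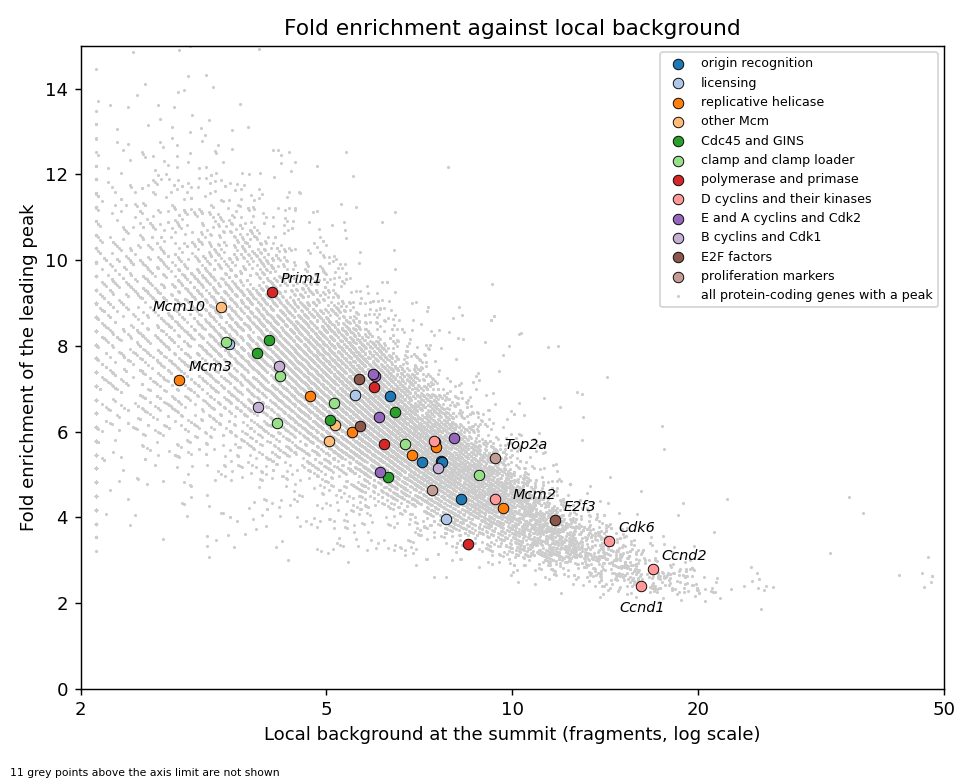
Fold against local background, in fragments, of the leading peak of each member, with all protein-coding genes with a peak in grey, background on a log axis; a higher background at a given pileup gives a lower fold. Ccnd1, Ccnd2, Cdk6 and E2f3 lie at the right, with backgrounds of 11.71 to 16.87 fragments.

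The E and A cyclins drive entry into and passage through S phase with Cdk2, and had a median of 50 fragments. Ccne2 had 52 (38.8 to 68.2) at chr4:11189967-11190641, and Ccne1, its close relative, had 35 (24.4 to 48.7) at chr7:38106450-38107132. The intervals of the 2 cyclin E genes overlap. Ccna1, the A cyclin known from the male germ line, had 50 fragments at chr3:55054533-55056030 and a fold of 7.30. Ccna2, the A cyclin of dividing somatic cells, also had 50, with a fold of 7.35, and Cdk2 had 44. The B cyclins act with Cdk1 in mitosis. Ccnb1 had 43 fragments (31.1 to 57.9) at chr13:100787401-100787752, with its summit 1097 bp upstream of the start. A wider Ccnb1 peak of 1409 bp lay across the start, with 40 fragments and its summit 114 bp upstream. Ccnb2 had 31 (21.1 to 44.0) at chr9:70420796-70422046, with its summit 10 bp from the start, and Cdk1 had 38.

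The activator E2F genes had 40 to 49 fragments. E2f3 was highest, with 49 (36.3 to 64.8) at chr13:29986122-29986892 and a background of 11.71, and E2f1 lowest, with 40 (28.6 to 54.5) at chr2:154568570-154569382. E2f2 had 47 fragments and a fold of 7.23. An inner peak of E2f3, 75766 bp from its nearest annotated start, was 1283 bp wide with 46 fragments and a fold of 10.14. Top2a and Mki67, which are used as markers of dividing cells, also carried the mark. Top2a, the topoisomerase of mitotic chromosomes, had the highest pileup among the leading peaks of members, 55 fragments (41.4 to 71.6) at chr11:99023448-99025029. Mki67 had 38 (26.9 to 52.2) at chr7:135715357-135716430.

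Joined over gaps of up to 1000 bp, peaks at 12 members formed domains among the widest 5% of the library (23.5%, 14.0 to 36.8), against 18.7% of protein-coding genes. That background is lowered by genes with no peak, since 83.4% of protein-coding genes and all 51 members had a peak by the rule. A wide domain spans at least 2002 bp. The widest were at E2f3, with 3629 bp in 4 peaks, and at Cdk6, with 3483 bp in 5 peaks. Top2a had 2900 bp, Orc3 2601 bp, Ccnd3 2593 bp, Ccne2 2586 bp, Ccnb1 2386 bp and E2f1 2334 bp. Orc4, Mcm7, Mcm9 and Cdc45 lay between 2052 and 2227 bp, and Orc4, Mcm7 and Cdc45 have the start of a neighbour within 1 kb on the other strand. The median domain of all members was 1540 bp, against 1528 bp over all protein-coding genes with a peak.

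**Figure D5:**
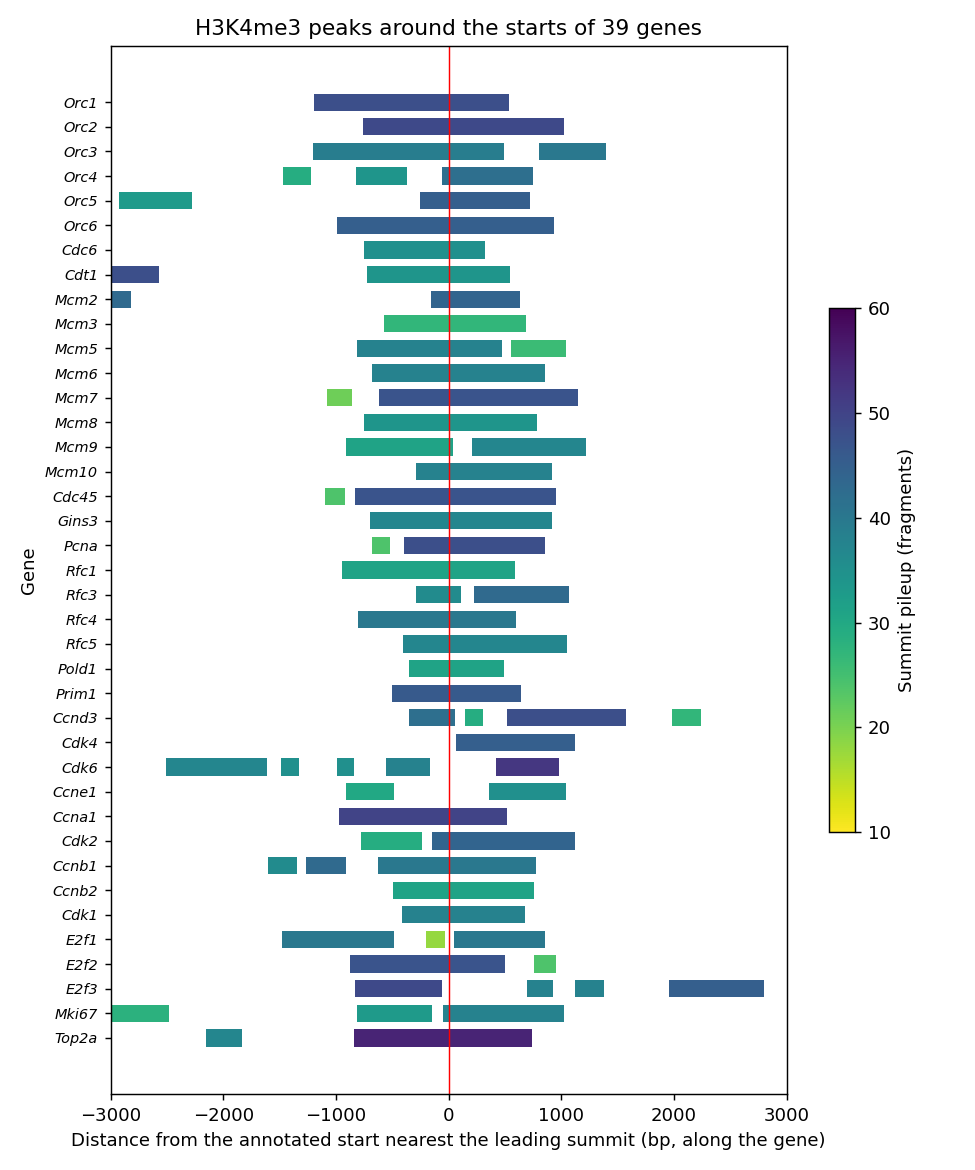
Peaks within 3 kb of the annotated start of the 39 members in the promoter table, by distance along the gene in bp; boxes are peaks, coloured by summit pileup in fragments, and the line marks the start nearest the leading summit. E2f3 and Cdk6 show several peaks in a row with the start base free, and most other members have a box across the start.

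By the rule the members had 109 peaks, of which 51 were the leading ones. Another 34, at 19 genes, lay at an end or start and had a median of 34 fragments. A further 20 lay inside 14 genes away from their ends and from other coding genes, with a median of 32 fragments, and 4 lay in Mcm9 near Asf1a. Of the members, 26 had a single peak (51%), against 34.6% of protein-coding genes with a peak. Another coding gene ended within 5 kb of 34 members (66.7%), against 46.0%. The leading peak of 12 members (23.5%) also came within 1 kb of an end or start of another coding gene, against 18.7% of protein-coding genes with a peak. Besides those named with a partner, these were Mcm8 with Trmt6, Pcna with Cds2, Pold1 with Nr1h2, Pole with Pxmp2 and Ccna2 with Bbs7.

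Other genes of the same pathway were set beside the members, from a list of 75 factors of origin firing, forks, nucleotide supply and chromatin assembly, mitosis and E2F control. All 75 had a peak by the rule and at an end, against 83.4% and 74.5% of protein-coding genes. Of 63 with a window, 61 had one at the start, against 73.3%. The exceptions, Timeless and Tfdp2, had a peak at the 5′ end of their annotated extent instead. Their leading pileup had a median of 42.0 fragments, the same as the members. The highest were Cdc25c, a phosphatase that activates Cdk1, with 65 fragments (50.2 to 82.8), Fen1, the flap nuclease of lagging-strand synthesis, with 62, and Plk1, a mitotic kinase, with 62. The Fen1 peak also reached an end of Tmem258, whose start is 281 bp away on the other strand. The mark there cannot be assigned to either gene. The brakes of the cycle were marked as well. All 10 CDK inhibitor and retinoblastoma family genes had a peak by the rule, against 83.4% of protein-coding genes, and 6 of them were in a wide domain, against 18.7%, with a median of 44.5 fragments and a median fold of 4.87. Rbl2, a retinoblastoma relative, had 52, and the inhibitors Cdkn1b and Cdkn2c had 50 each. H3K4me3 alone does not measure the transcription of a gene.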

How the data were processed

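The submitters' processing notes name MACS2 2.1.0 and Bowtie2 2.5.0, and also deepTools 3.5.1, bedtools 2.27.1, SAMtools 1.16.1 and Trim Galore, with builds mm10 and sacCer3. The sources used here give neither the roles of these tools nor the total depth. For each H3K4me3 peak the authors deposited a score, a fold enrichment (a ratio), a −log10 p and a −log10 q. All are the authors' own values and were used only within the list. Peak names carry the letters of an IgG control, and whether IgG set the background is not given.

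Summit pileup and background were solved from the deposited fold and from the −log10 p read as a Poisson upper tail, within 0.0001 for 135053 of 135064 peaks. Peaks were counted at a −log10 q of 2 or more where they shared 1 bp with the 1000 bp either side of an end or start, or lay inside the gene, in GRCm38.p6 (the build of mm10). Starts, strand and sequences came from the RefSeq promoter table.

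Shares have Wilson 95% intervals and pileups exact Poisson 95% intervals. Fragments carry no molecular identifiers here, so these cover counting error only, and with 1 library no test was made. Named by rule were all 51 members, with coordinates for the highest and lowest pileup of each role and for members with no peak at an end, and the 3 highest of the pathway list and of the CDK inhibitor and retinoblastoma list. Marker genes, and peaks inside genes, at other ends and near other genes, were singled out after their values were seen. Members and lists were chosen with earlier results of these data known. As a check of the code only, peaks were planted close to the starts of 200 isolated genes, with no other peaks. Of these, 200 of 200 among 21887 were called, with 0 others. The 1000 bp window makes that outcome certain, so it says nothing about crowded loci or false peaks. Alternatives covered stricter peaks, windows, overlaps, join gaps and isolated genes. The scripts ran on scipy 1.17.1, pandas 2.3.3, numpy 2.4.6 and matplotlib 3.10.9 under Python 3.11.15.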

Additional observations from a re-analysis of the deposited data

How the results depend on the processing

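No paired analysis was possible because there is 1 library and no test. Among genes with no other coding gene end within 5 kb, 16 of 17 members had a peak at an end (94.1%), against 7792 of 11818 protein-coding genes (65.9%), counts that fall because fewer genes enter. With the widest 10% of domains called wide, 22 members were in one (43.1%), against 7341 protein-coding genes (33.5%). With a join gap of 3000 bp the counts were 10 members and 2362 protein-coding genes (10.8%). Under the other thresholds, windows and overlaps, 34 to 50 members had a peak at an end, 30 to 39 at the start and 43 to 51 by the rule. The lowest of each was at a fold of at least 5. There the shares of members were 66.7%, 76.9% and 84.3%, against 57.4%, 56.5% and 71.2% of protein-coding genes. That fold removed all peaks of Ccnd1, Ccnd2, Cdk4, Cdk6, Cdt1, Gins1, Orc3 and Pcna. A −log10 q of at least 10 removed those of Ccnd1, Ccnd2 and Cdt1. It left 94.1% of members and 78.4% of protein-coding genes with a peak by the rule. The median pileup of members stayed between 40 and 42 fragments, and their median fold between 5.86 and 6.45. Choosing the leading peak by fold gave 31 fragments at Ccnd2 and 24 at Gmnn, and a fold of at least 5 gave 19 at Mki67. Leaving out replicates could not be done with 1 library. A lead of 1 peak over another within these intervals is not resolved at this depth.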
